A study of Saccharomyces cerevisiae with 2 samples.

Results

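The most open promoters of budding yeast in 2 NOMe-Seq libraries are described here. They are nuclear protein-coding genes chosen by the mean methylation level of the cytosines in a window upstream of the start codon, from −250 to −100 bp. A gene was taken when this level was 35% or more in the CCMT library and also in the GCMT library, with at least 5 listed cytosines per library. Of 4918 genes with enough cytosines, 68 passed (1.38%), and 4850 did not. The levels in the window are therefore given as a description and without a test.

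NOMe-Seq marks accessible DNA in nuclei with a DNA methyltransferase and reads the marks by bisulfite sequencing. Nuclei of the S288C strain, grown in YPD at 30 °C and fixed with formaldehyde, received 1 of 2 enzymes. CCMT is an M.CviQIX shortened at its N-terminus, whose target is the first of 2 adjoining cytosines (CC), and GCMT, the control of the study, is M.CviPI, whose target is GC. Both libraries come from the same strain, and there was 1 library per enzyme with no library of untreated nuclei, so no replicate error can be given and no test between the enzymes was possible. How strongly the nuclei were fixed and permeabilized is not certain, since labels and methods give different amounts of fixative and detergent. Per cytosine, the median coverage in the 68 windows was 27 reads with CCMT and 13 with GCMT, close to the 29 and 13 reads in the windows of all 4918 genes. Intervals from reads are exact binomial 95% intervals (Clopper-Pearson) and cover counting error only, since reads can be copies of the same molecule.

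Yeast promoters typically hold a nucleosome-free region upstream of the transcription start, bordered downstream by the well-placed first nucleosome of the gene. General regulatory factors such as Reb1, Abf1 and Rap1, the remodeler RSC and stiff runs of A or T are known to keep nucleosomes out of such regions. In the compact yeast genome, 2 genes that point away from each other often share one nucleosome-free region.

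The windows of 6 promoters are printed to show the kinds of sequence found among the members. They are read 5′ to 3′ on the strand of the gene from the R64 (sacCer3) reference and run from −250 to −100 bp. Capitals mark matches to the factor sequences searched, namely Reb1 (TTACCCG), Abf1 (consensus), Rap1 (ACCCANACA), PAC (GCGATGAG), Rpn4 (GGTGGCAAA) and the core CCCTAA, on either strand.
HSH49: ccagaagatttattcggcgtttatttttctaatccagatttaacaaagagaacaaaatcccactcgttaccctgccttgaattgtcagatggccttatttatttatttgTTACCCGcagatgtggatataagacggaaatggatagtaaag
MRPL15: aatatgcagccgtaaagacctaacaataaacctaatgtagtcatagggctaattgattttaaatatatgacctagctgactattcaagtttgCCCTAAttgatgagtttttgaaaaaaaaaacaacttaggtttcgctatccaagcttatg
CCT7: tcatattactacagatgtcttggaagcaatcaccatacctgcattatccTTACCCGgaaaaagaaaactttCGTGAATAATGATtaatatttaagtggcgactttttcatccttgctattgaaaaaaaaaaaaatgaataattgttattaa
ATG27: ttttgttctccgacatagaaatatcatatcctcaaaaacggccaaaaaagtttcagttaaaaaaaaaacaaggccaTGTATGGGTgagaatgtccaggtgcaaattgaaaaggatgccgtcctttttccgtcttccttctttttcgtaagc
YPT1: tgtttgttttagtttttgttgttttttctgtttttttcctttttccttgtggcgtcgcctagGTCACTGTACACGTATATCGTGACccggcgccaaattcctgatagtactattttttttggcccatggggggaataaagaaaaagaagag
NOP14: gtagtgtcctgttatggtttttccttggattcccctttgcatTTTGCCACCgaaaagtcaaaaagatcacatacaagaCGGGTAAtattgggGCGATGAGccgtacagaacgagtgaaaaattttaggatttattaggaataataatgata

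HSH49 (chrXV:912572-912722, plus strand) held a Reb1 sequence and MRPL15 (chrXII:759230-759380, plus strand) the core CCCTAA. CCT7 (chrX:207627-207777, plus strand) held Reb1 and Abf1 sequences close together, and ATG27 (chrX:90197-90347, minus strand) a Rap1 sequence next to a run of A. The YPT1 window (chrVI:56086-56236, minus strand) is at the same time the whole window of TUB2 on the other strand, with overlapping Abf1 sequences near its middle. The NOP14 window (chrIV:190686-190836, minus strand), shared in large part with RPN5, held Rpn4, Reb1 and PAC sequences within a short distance.

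Median levels over the 68 promoters were 37.4% with CCMT, with a range from 35.1 to 52.1%, and 40.4% with GCMT, with a range from 35.1 to 49.2%. Over all 4918 genes the medians were 18.2% and 19.6%. Taken singly, 184 genes reached 35% with CCMT (3.74%) and 433 with GCMT (8.8%). Among members, the level was higher with GCMT in 44 (64.7%) and higher with CCMT in 24. Among the other genes it was higher with GCMT in 56.4%, so a higher GCMT level was not particular to the members.

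HSH49, which encodes a subunit of the U2 snRNP of the spliceosome, had the highest smaller level. Its window had 46.5% with CCMT over 15 cytosines and 48.5% with GCMT over 9 cytosines. The lowest, median and highest of those cytosines were 25, 46.3 and 61.8% with CCMT and 33.3, 47.1 and 64.7% with GCMT. All listed cytosines of this window were thus at 25% or more in both libraries. Cytosines outside the window could be lower, with 0% at −35 bp (CCMT) and at −23 bp (GCMT). Pooled reads gave 46.4% of 474 reads with CCMT (interval 41.9 to 51.02%) and 47.9% of 163 reads with GCMT (39.98 to 55.8%).

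The next promoters in this order belonged to genes of different functions. MRPL15, a protein of the large mitochondrial ribosomal subunit, had 43.2% with CCMT and 43.7% with GCMT. MIN10, which encodes a small mitochondrial protein, had the highest CCMT level of all members at 52.1% over 6 cytosines, beside 43.0% with GCMT over 10. YML122C, an uncharacterized gene whose window lies over an annotated antisense RNA, had 41.2% and 41.6%, on only 59 CCMT reads and 116 GCMT reads. ADD37, which takes part in the degradation of proteins of the endoplasmic reticulum, had 41.8% with CCMT and 40.8% with GCMT.

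RPL14A, a protein of the large cytosolic ribosomal subunit, had 44.2% with CCMT and 40.5% with GCMT. DBP7, a DEAD-box RNA helicase of ribosome assembly, had 40.4% with CCMT and 45.0% with GCMT. YGR266W, which encodes a membrane protein of unknown role, had 39.9% with CCMT and 41.02% with GCMT. The inositol polyphosphate kinase ARG82 had 39.6% with CCMT and 42.0% with GCMT. The nicotinamidase PNC1, of the NAD salvage pathway, had 39.3% with CCMT and 48.0% with GCMT. The autophagy protein ATG27 had 39.0% with CCMT and 46.5% with GCMT, and CCT7, a subunit of the cytosolic chaperonin, had 39.0% and 39.9%. In most of these genes the GCMT level was the higher, and RPL14A, MIN10 and ADD37 were the exceptions.

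**Figure D1:**
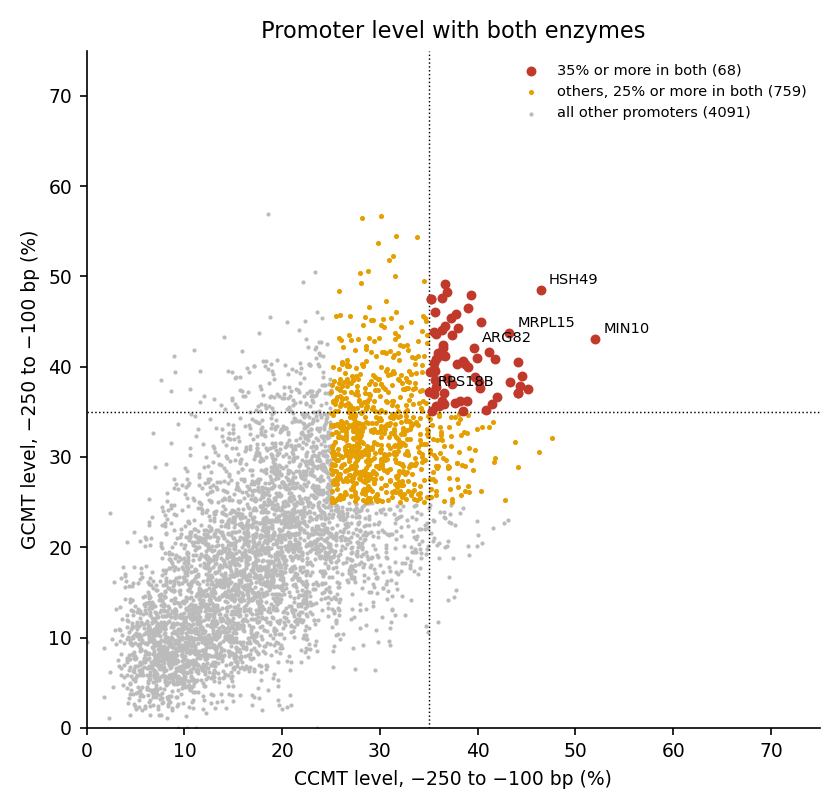
Mean methylation level from −250 to −100 bp of the start codon with CCMT (horizontal axis, %) and GCMT (vertical axis, %), 1 point per gene, with dotted lines at 35%. The 68 members (red) form the upper right corner of one continuous cloud with 759 other genes at 25% or more in both libraries (orange) and the rest (grey).

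The members were not set apart from the genes below them by a gap. Just inside the threshold stood RPS18B with 35.1% (CCMT) and 37.2% (GCMT), VID24 with 38.5% and 35.1%, COX19 with 35.1% and 39.4%, RPA34 with 35.3% and 35.1%, and ETT1 with 40.8% and 35.2%. Just outside stood CHO1, TGL4, SBH2, DLD3 and FBA1, whose smaller levels were 34.9, 34.9, 34.8, 34.8 and 34.8%. The interval of the pooled reads held 35% in at least one library for 65 of the 68 members. It lay above 35% in both libraries for HSH49, MRPL15 and ATG27 only. Among the other genes, 330 had intervals that reached 35% or more in both libraries, so which genes belong to the set depends on counting error.

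A choice made in one library can be read in the other, which it did not use. The 184 genes at 35% or more with CCMT had a median of 32.0% with GCMT (quartiles 26.0 and 38.1%), and 8 of them were below the GCMT median of all genes. The 433 genes at 35% or more with GCMT had a median of 27.9% with CCMT (quartiles 23.0 and 32.8%), and 44 were below the CCMT median of all genes. In both directions the level read in the other library was lower than the level used for the choice, whose medians were 37.2% and 38.6%.

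With CCMT minus GCMT, the largest differences were 9.003 points at MIN10, 7.71 at RPN2, 7.11 at PDI1 and YCL042W, which share all their sites, and 6.49 at PSP2. The smallest were −12.5 points at LSO2, −12.2 at PAC10 and YGR079W, which also share all their sites, −11.4 at CUE4 and −11.3 at HYP2. LSO2, a ribosome-associated protein that helps translation resume after starvation, had 36.7% with CCMT over 9 cytosines and 49.2% with GCMT over 6. Pooled reads there gave 37.2% (30.5 to 44.4%) with CCMT and 49.5% (38.8 to 60.1%) with GCMT, intervals that overlap. HYP2, the essential translation factor eIF-5A, had 36.3% with CCMT over 15 cytosines and 47.6% with GCMT over 10. Its pooled intervals of 32.1 to 42.0% with CCMT and 39.0 to 52.9% with GCMT also overlap. CUE4, which encodes a protein with a CUE domain, a kind known to bind ubiquitin, had the largest number of cytosines among these genes, 19 with CCMT and 21 with GCMT. Its pooled intervals of 32.6 to 39.99% with CCMT and 40.7 to 57.3% with GCMT did not overlap. Its single cytosines had standard deviations of 10.4 points (CCMT) and 24.2 points (GCMT), which these intervals leave out. These genes were picked for their differences and the intervals hold counting error only, so overlap or its lack is no test between the enzymes.

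The spread of single cytosines in the windows is given as a description, since their mean chose the members. Of 880 CCMT cytosines in the 68 windows, 20.8% were methylated in 50% or more of the reads and 0.455% had no methylated read. In the windows of the 4850 other genes these shares were 2.06% and 6.58%. Of 787 GCMT cytosines, 35.6% were at 50% or more and 3.94% had no methylated read, against 9.51% and 20.4% in the other windows. Cytosines on the strand of the gene and on the other strand had like means in the members, 39.0% and 37.8% with CCMT and 40.3% and 40.9% with GCMT.

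The members came from many kinds of genes. Cytosolic ribosomal protein genes gave 5 of 127 (3.94%, beside 1.38% over all genes), namely RPL14A, RPL22B, RPL27A, RPS1A and RPS18B. Their class also had a high median of the smaller level, 26.8%, beside 15.99% over all genes. Genes of secretory and vacuolar traffic gave 5 of 114. These were YPT1, the Rab GTPase of transport from the endoplasmic reticulum to the Golgi, VPS21, a Rab GTPase of endosomes, the dynamin-like VPS1, the coat protein SEC13 and the plasma membrane t-SNARE SSO2. Ribosome biogenesis gave DBP7 and NOP14 of 69 genes, and the proteasome gave the regulatory particle subunits RPN2 and RPN5 of 32.

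Other classes gave single members or pairs. Autophagy gave ATG5 and ATG27 of 32 genes, chaperones gave CCT7 and HSP60 of 27, and the respiratory chain and its assembly gave CYT2 and COX19 of 57. Splicing gave HSH49 and PSP2 of 52, although PSP2 is known as a suppressor of intron splicing defects and not as a part of the spliceosome. RNA polymerases gave RPA34 of 26, translation factors gave HYP2 of 31 and mitochondrial ribosomal proteins gave MRPL15 of 72. No member came from 10 histone genes, 16 glycolytic genes, 29 aminoacyl-tRNA synthetases, 5 general regulatory factor genes or 83 genes named for transcription factors or chromatin. The share over all genes was 1.38%, so classes of this size can lack members without differing from it. Classes follow the names and annotated products, so single genes can be missed: RRN6, of the RNA polymerase I core factor, and CAC2, a subunit of a chromatin assembly factor, are members outside these classes. Glycolytic genes had a median smaller level of 23.8%, and FBA1, the aldolase, stood just outside. Uncharacterized products made up 7 of the 68, of 453 such genes.

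The other 36 members belonged to none of these classes. Among them were genes of microtubules and chromosome segregation: TUB2 encodes beta-tubulin, ASK1 a subunit of the Dam1 complex, CHL4 a kinetochore protein, NUD1 a scaffold of the spindle pole body and PAC10 a subunit of prefoldin, which hands tubulin to the chaperonin. Mitochondrial functions were found in TOM22, a receptor of protein import, MDJ1, a co-chaperone of the matrix, MDM32, a protein of the inner membrane, and FMT1, which formylates the initiator tRNA. GPD1, the key enzyme of glycerol synthesis under osmotic stress, PNC1 and the sulfiredoxin SRX1 are stress-responsive genes. CIP1 encodes an inhibitor of the G1 cyclin-dependent kinase. The groups named in this paragraph were put together after the members had been seen, and such genes were not counted among all genes. By chromosome, the share was highest on chromosome VI with 5 of 105 genes (4.76%) and lowest on chromosome XIV with 1 of 333 (0.30%), beside 1.38% over all genes. The count on chromosome VI includes YPT1 and TUB2, which share 1 window.

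Members had an upstream neighbour that pointed away from them more often than not. For 47 of the 68 (69.1%, interval 56.7 to 79.8%) the upstream neighbour was divergent, beside 53.9% over all 4918 genes and 54.3% in the 759 other genes at 25% or more in both libraries. The interval counts both genes of a pair. With shared promoters counted once the share was 65%, and among the 32 genes chosen on a window from −200 to −50 bp it was 50%, below that of all genes. The median distance to the neighbour was 446 bp in members and 446 bp in the other genes. Windows overlapped a neighbouring coding sequence in 5 members (7.35%), MDJ1, CUE4, HYP2, YLR112W and YPL068C, and in 18.3% of the other genes.

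In 9 divergent pairs both genes were members, which accounts for 18 of the 68 genes. The windows of 8 of these pairs overlapped, so the 68 genes stand for 60 separate regions, and the levels of partners are not independent. The pair with the highest smaller level was PDI1 and YCL042W, with 44.1% (CCMT) and 37.0% (GCMT) for both genes on the same 15 and 8 cytosines. PDI1 encodes the protein disulfide isomerase of the endoplasmic reticulum, and YCL042W is uncharacterized. PNC1 and VIR1, a subunit of the mRNA m6A methyltransferase complex, lay 653 bp apart and shared no cytosine of their windows, so both sides of this region were open on separate cytosines: VIR1 had 36.7% with CCMT and 44.5% with GCMT.

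LSO2 and PSD2, a phosphatidylserine decarboxylase, shared only 3 CCMT and 2 GCMT cytosines, and PSD2 had 38.5% with CCMT and 40.7% with GCMT. YPT1 and TUB2 shared their whole window, with 36.3% and 41.3% on 18 and 10 cytosines. CYT2, the heme lyase of cytochrome c1, and SRX1 shared 13 CCMT and 10 GCMT cytosines, and had 36.9 and 38.7% (CYT2) and 37.7 and 35.9% (SRX1) with CCMT and GCMT. The other pairs were SSO2 with ADD37, NOP14 with RPN5, RRN6 with FMT1, and PAC10 with YGR079W.

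In 29 divergent pairs only 1 gene was a member. The window of the partner overlapped in 7 of them, and for the 6 partners with enough cytosines the median CCMT level was 32.7% (30.2 to 38.2%) and the median GCMT level 36.8% (27.0 to 43.3%). In the other 22 pairs the windows were apart. There the 18 partners with enough cytosines had medians of 17.97% with CCMT (6.25 to 28.3%) and 24.3% with GCMT (5.63 to 35.4%), close to the medians of all genes with CCMT and somewhat above with GCMT. The genes of these pairs lay from 49 bp (CUE4) to 1768 bp (GPD1) apart. Partner levels with CCMT and GCMT were low for PAP1 beside VPS1 (6.25 and 10.9%) and higher for HST2 beside CIP1 (27.6 and 35.4%).

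The open stretch of a promoter was set as the run of positions around its highest point in the window at which the mean level over 51 bp was 20% or more, in the mean of both libraries. This measure uses the cytosines that chose the members. Smoothing can widen a stretch around a high peak and shorten or remove one around a peak little above 20%, so it can act differently on members and other genes. The median width over the members was 234 bp (quartiles 177 and 339 bp, range 132 to 1041 bp). It was 239 bp with CCMT alone and 214 bp with GCMT alone. The 759 genes at 25% or more in both libraries had a median of 179 bp, and the 4850 other genes 106 bp, leaving out 855 that had no open stretch. Stretches of 300 bp or more were found in 27 members (39.7%), in 19.2% of the 759 genes and in 5.53% of the 4850.

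A fixed level cuts higher promoters at a wider point, so widths were also read at the midpoint between each promoter's own maximum and its gene body. The medians were then 159 bp in members, 136 bp in 756 of the 759 genes and 97 bp in 4738 of the 4850 genes, those with a stretch at that level, so the order of the sets was kept with a smaller spread.

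**Figure D2:**
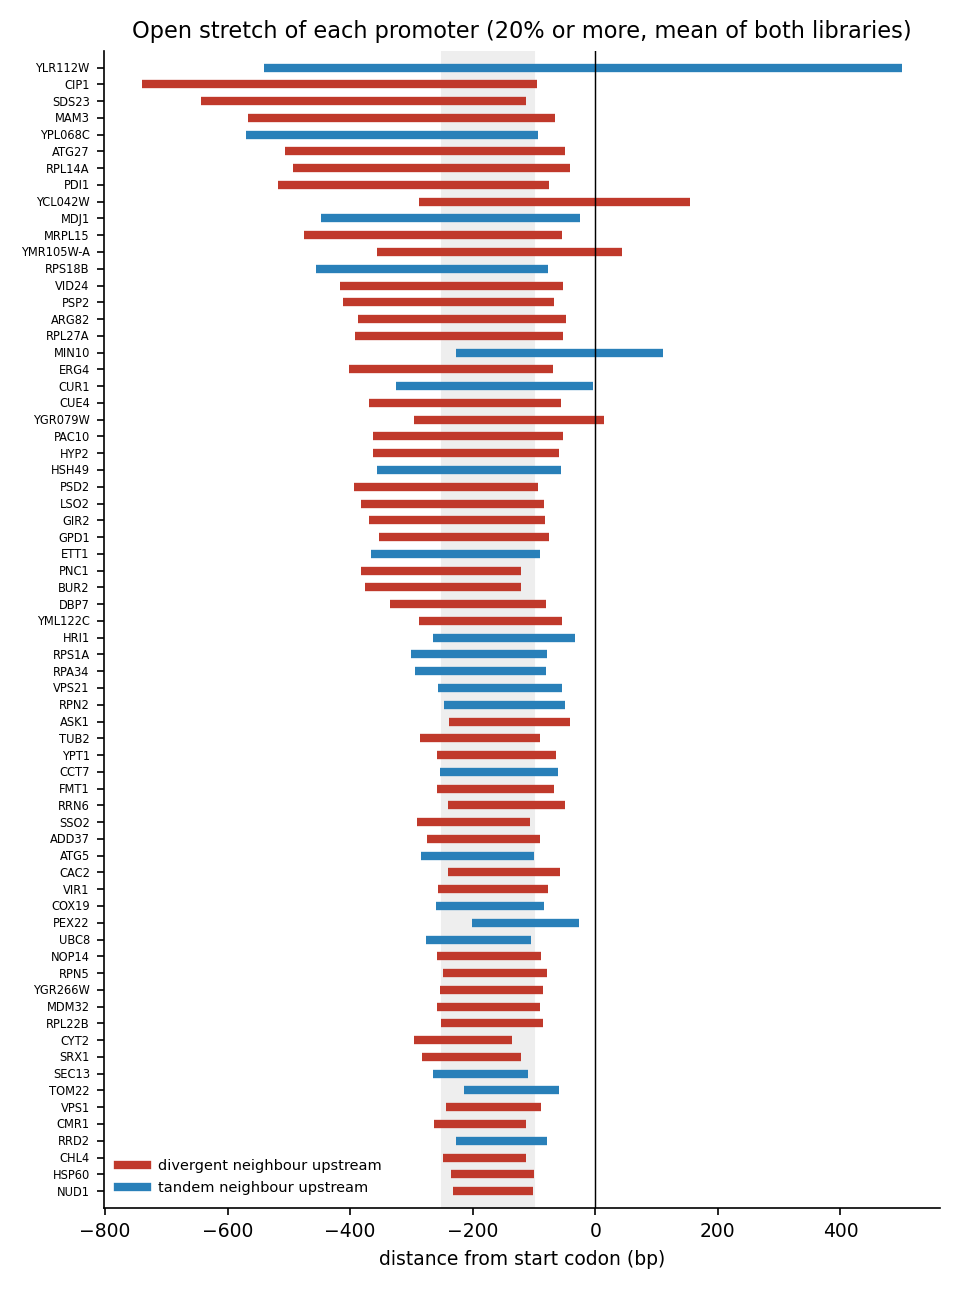
Open stretch of each of the 68 promoters in bp from the start codon, ordered by width, for 47 members with a divergent (red) and 21 with a tandem (blue) upstream neighbour; grey marks −250 to −100 bp. Upstream ends vary from −739 to −201 bp, and most downstream ends lie before the start codon.

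The widest stretch, 1041 bp at YLR112W, ran through this short uncharacterized gene to the limit of the search at +500 bp, and it measured 305 bp with CCMT alone and 728 bp with GCMT alone. CIP1 had the next, 645 bp, from −739 to −95 bp. SDS23, a protein of cell separation, had 532 bp in the mean of both libraries, 507 bp with CCMT and 199 bp with GCMT. MAM3, a membrane protein, had 502 bp, but only 255 bp with CCMT alone. YPL068C, which encodes an uncharacterized nuclear protein, had 477 bp. The narrowest stretches were 132 bp at NUD1, 136 bp at HSP60, 137 bp at CHL4, 149 bp at RRD2 and 152 bp at CMR1, of which the first 3 are shorter than the DNA wrapped in 1 nucleosome.

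**Figure D3:**
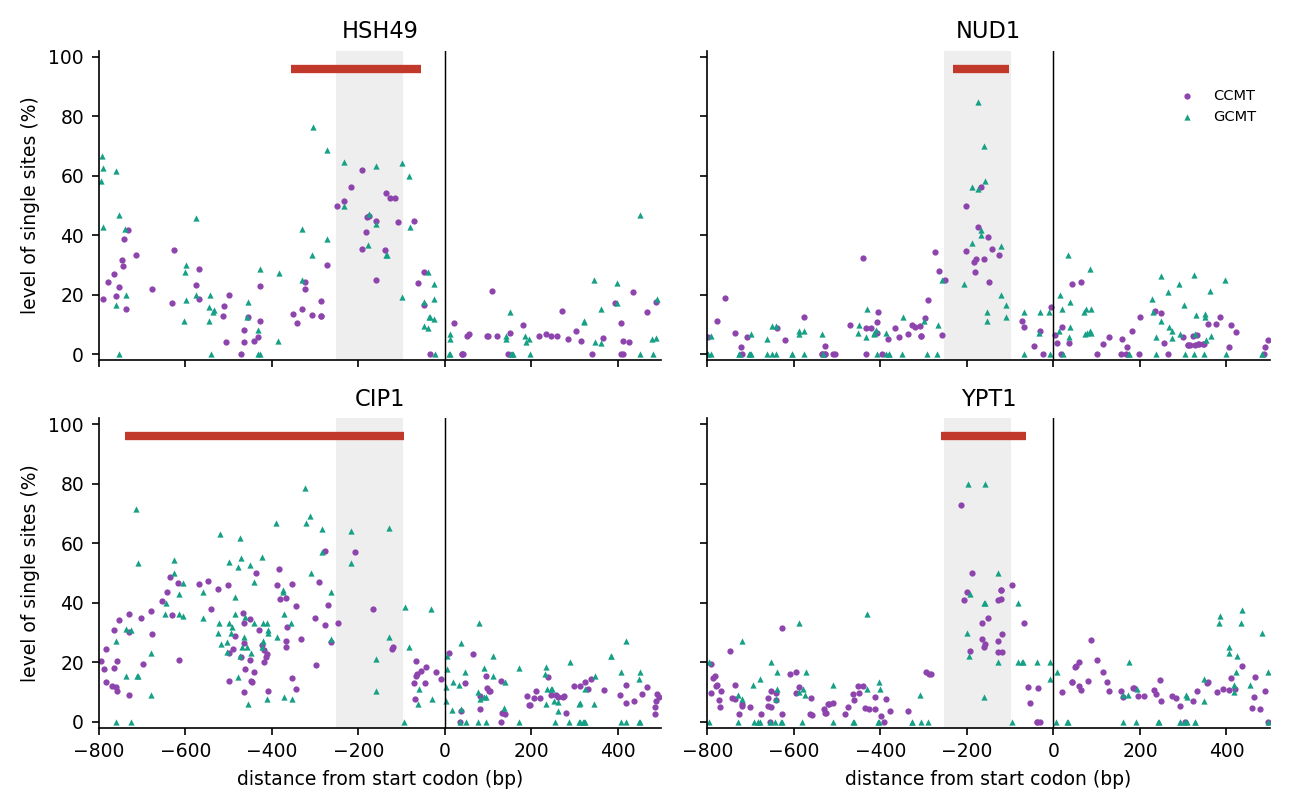
Methylation level of single cytosines (%, vertical axis) by distance from the start codon (bp) at 4 members, with CCMT as circles and GCMT as triangles; grey marks −250 to −100 bp, and the red bar the open stretch. HSH49 had the highest smaller level, NUD1 the narrowest stretch (132 bp), CIP1 a stretch of 645 bp, and YPT1 shares its window with TUB2.

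The variation in width lay mainly upstream. The upstream edge had a median of −292.5 bp with quartiles of −384 and −257 bp, whereas the downstream edge had a median of −76.5 bp with quartiles of −91 and −53 bp. In the 4850 other genes, the downstream edge of those with a stretch had a median of −103 bp. Median widths were 255 bp for the 47 divergent members and 215 bp for the 21 tandem members, and their ranges overlapped (132 to 645 bp and 149 to 1041 bp). Both genes of a pair were counted even where they share 1 stretch, which can happen only among the divergent members. In 9 members the stretch reached the coding sequence of the upstream neighbour: PDI1, HYP2, MDJ1, PAC10, YLR112W, SEC13, CUE4, YPL068C and CIP1. The windows of HYP2, MDJ1, YLR112W, CUE4 and YPL068C already overlap a neighbouring coding sequence. Such stretches were not counted in the other genes, so the 9 have no share to stand beside. In 5 members (7.35%) it ran past the gene's own start codon, YCL042W, MIN10, YGR079W, YLR112W and YMR105W-A, beside 1.35% of the other genes with a stretch.

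Outside the window, levels were not used to choose the gene itself, but in divergent pairs the window of the partner can lie there and was used to choose the partner. From −400 to −300 bp, 42.2% of 64 members reached a level of 20% with CCMT and 37.1% of 62 with GCMT, against 22.5% and 25.7% of the other genes, counting genes with at least 3 cytosines there. Of the members with a divergent neighbour 48.9% (CCMT) and 43.5% (GCMT) reached 20%. Of the tandem members 26.3% (5 of 19) and 18.8% (3 of 16) did. That is above the other genes with CCMT and below them with GCMT. The other genes were not split by neighbour, so the excess cannot be placed in either kind of member. From −600 to −400 bp the shares were 29.9% and 26.5% in members, against 14.5% and 17.1%. There the divergent members had 34.04% and 29.8%, and the tandem members 20% and 19.05%. Around the start codon, from −50 to 50 bp, 10.6% and 10.2% of members reached 20%, against 2.94% and 4.17% of the others. The median levels from −50 to 50 bp were nevertheless low in both sets, 8.43% (CCMT) and 8.33% (GCMT) in members and 8.03% and 8.23% in the others.

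The mean profile over the members rose to 40.5% (CCMT, at −183 bp) and 42.9% (GCMT, at −194 bp). The profile over the 4850 other genes had its maximum further downstream, at −148 bp (CCMT, 21.1%) and −145 bp (GCMT, 22.6%). At the midpoint between maximum and gene body, the members' peak spanned 210 bp in the CCMT library, between −298 and −89 bp, and 189 bp in the GCMT library, between −282 and −94 bp. That of the other genes was lower and broader, with 292 bp (−361 to −70 bp) and 273 bp (−344 to −72 bp). In the 759 other genes at 25% or more in both libraries the peak spanned 213 bp (CCMT) and 200 bp (GCMT), close to that of the members. The members' peak was thus narrower than that of all 4850 other genes, a trait shared by the 759, which were chosen on the same window. The median stretch of single members was nevertheless wider than that of the other genes.

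**Figure D4:**
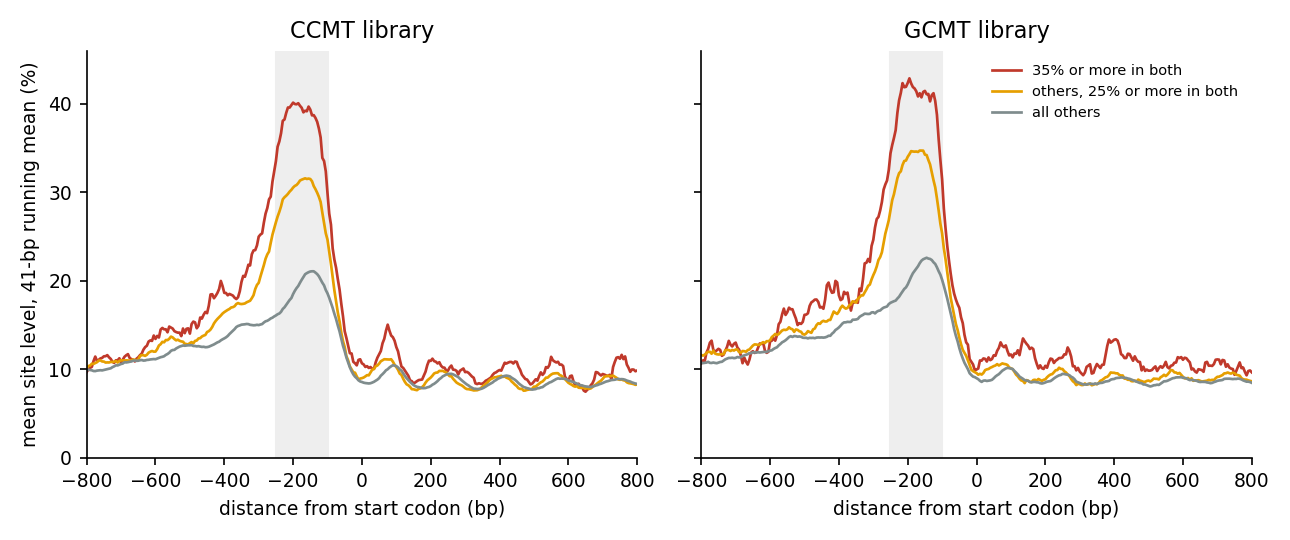
Mean methylation level (%, 41-bp running mean) by distance from the start codon (bp) with CCMT (left) and GCMT (right) for the 68 members, the 759 other genes at 25% or more in both libraries and all 4850 others; grey marks −250 to −100 bp. The members reach 40.5% (CCMT) and 42.9% (GCMT) and then fall to about 10% near the start codon, where the 3 lines come close.

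Downstream of the peak the members' profile fell to a low stretch over the start codon, where the first nucleosome of yeast genes usually lies. The first minimum, 9.88% with CCMT, lay at 32 bp, and that of GCMT, 9.87%, at 1 bp. Pooled reads within 20 bp of it gave intervals of 9.04 to 10.4% with CCMT and 9.17 to 11.4% with GCMT. The bottom was flat: the profile stayed within 2 points of its minimum over −30 to 52 bp in the CCMT library and over −22 to 56 bp in the GCMT library, so the position of the lowest point itself carries little. The centres of these low stretches were 11 bp and 17 bp. In the other genes the minimum of 8.40% with CCMT was at 24 bp, and that of 8.58% with GCMT at 15 bp.

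The members' profile rose again to 15.05% at 75 bp with CCMT, and in the other genes to 10.5% at 92 bp. With GCMT the highest point within 150 bp of the minimum was 13.8% at 136 bp in members and 10.2% at 97 bp in the other genes. With 68 genes this second rise was uneven, most so in the shallower GCMT library.

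Start codons do not sit at a fixed distance from the first nucleosome, so the promoters were also aligned on the downstream edge of the open stretch. The edge was found in one library and the levels were read in the other, which keeps the choice of the edge apart from the levels. With edges from GCMT, the CCMT level of the members was 23.6% at the edge and 11.7% at 50 bp beyond it. It reached its minimum of 9.19% at 92 bp, rose to 13.4% at 153 bp, and had the next minimum of 8.05% at 275 bp. With edges from CCMT, the GCMT level was 20.6% at the edge and 11.2% at 50 bp, with the minimum of 9.24% at 101 bp and the next maximum of 12.9% at 157 bp. The minimum after it was 9.08% at 241 bp, so the libraries placed this second minimum differently. In the other genes it lay at 256 bp (CCMT) and 263 bp (GCMT).

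The other genes showed nearly the same course from the edge to the next maximum. Their minima were at 98 bp (8.46%, CCMT) and 109 bp (8.88%, GCMT), and the next maxima at 164 bp (11.2%) and 166 bp (10.7%). The members' next maxima were thus slightly nearer to the edge and higher in both libraries, differences for which no replicate error can be given. In 758 of the 759 genes at 25% or more in both libraries, the next maxima were at 155 bp (11.5%) and 160 bp (11.5%).

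**Figure D5:**
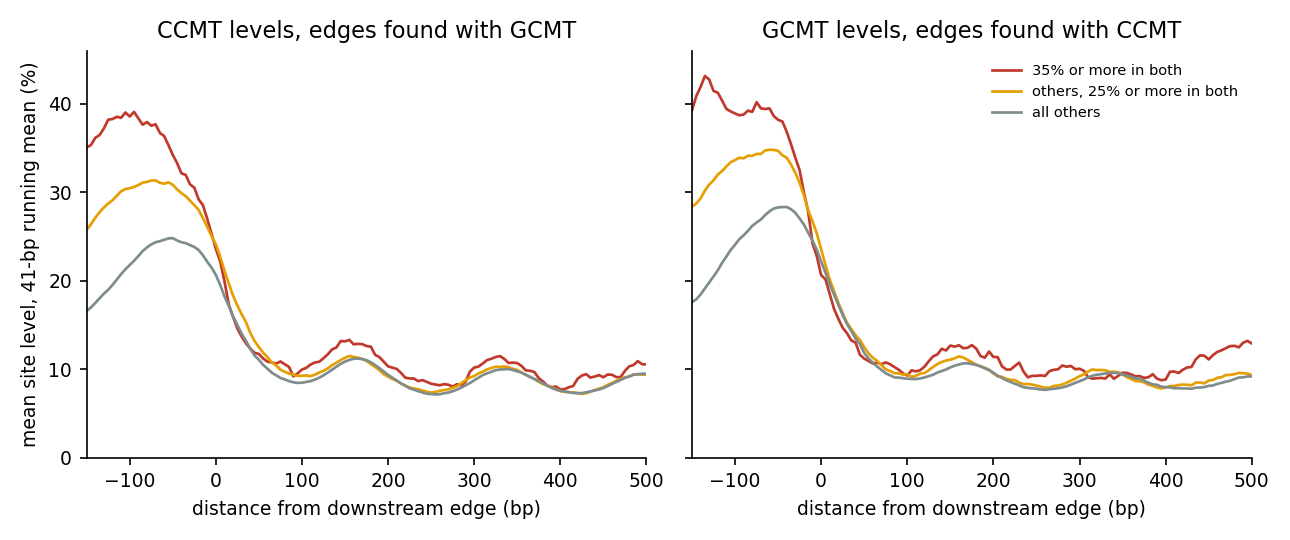
Mean methylation level (%, 41-bp running mean) by distance from the downstream edge of the open stretch (bp), with CCMT levels on edges found with GCMT (left) and GCMT levels on edges found with CCMT (right), for 68 members and for the 4097 (left) and 3979 (right) other genes with an edge. Beyond the edge the members fall to 9.19% at 92 bp and 9.24% at 101 bp, and rise to a next maximum at 153 and 157 bp, close to the course of the other genes.

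In single members, the lowest point of the smoothed level within 200 bp beyond the edge had a median position of 11.5 bp from the start codon (quartiles −21.3 and 101.8 bp) and a median level of 4.55%, beside 1 bp and 4.05% in the other genes. It lay upstream of the start codon in 28 members, from 0 to 100 bp in 23 and further downstream in 17. The other genes were not counted in this way, and the quartiles of their position were −41 and 40 bp. In HSH49 it was at 16 bp with 2.77%, and in MRPL15 at 53 bp with 1.502%. The lowest of many positions is low by its choice, so these levels are not set beside the means of the profiles.

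The gene bodies of the members were mostly closed. From 100 to 500 bp the median level was 8.23% with CCMT and 8.67% with GCMT, beside 8.03% and 7.82% in the other genes. Where a gene ends before 500 bp, this region includes DNA beyond it. In the 57 members of 500 bp or more the medians were 7.52% and 8.50%, beside 7.85% and 7.61% in other genes of that length. In 7 of the 68 members, against 2.43% of the other genes, the level was 15% or more in both libraries: CUE4, COX19, SRX1, YCL042W, YLR112W and YML122C are shorter than 500 bp, and FMT1, with 1206 bp, had 23.6% with CCMT and 23.2% with GCMT inside its coding sequence.

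Sequences of the windows were compared with all 4918 windows. GC content had a median of 36.4% in both members and other genes, with a range from 23.8 to 53.0% in members. The members held a median of 13 CC cytosines and 10 GC cytosines, against 10 and 12 in the others. No member window occurred a second time in the genome. The Reb1 sequence TTACCCG was found in 17 members (25%, interval 15.3 to 37.0%), in 15.5% of the 759 genes at 25% or more in both libraries and in 7.38% of all windows. Counted once per separate region, it stood in 14 of 60 (23.3%). Each Reb1 sequence itself holds CC targets of CCMT, so a window with it has at least these sites.

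The Reb1 windows were HSH49, CCT7, MDJ1, ARG82, YGR266W, ASK1, SEC13, RPN2, GIR2, UBC8, RRD2, CYT2 with SRX1, PAC10 with YGR079W, and NOP14 with RPN5. Their median levels were 38.9% with CCMT and 38.8% with GCMT, beside 37.3% and 40.7% in the 51 members without it. Their stretches had a median width of 193 bp (149 to 424 bp), against 255 bp (132 to 1041 bp) without the sequence. In the 14 Reb1 sequences themselves, the CCMT level of 28 cytosines was 43.3%, beside 38.3% in the 20 bp on each side and 37.5% from 21 to 70 bp away. With GCMT only 3 cytosines lay inside, with 28.8%, beside 42.7% and 35.7% at these distances, so the libraries differed in direction.

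Several motifs were close to their shares in all windows. Abf1 sequences were found in 8 members (11.8%) and in 10.8% of all windows, TATAAA in 25% and 26.2%, CCAAT in 22.1% and 24.7%, and AGGGG, the core of the stress response element, in 14.7% and 13.6%. CGCGC, the core bound by Rsc3 of the RSC remodeler, was in 14.7% of members and 8.89% of all windows. In the 759 genes at 25% or more in both libraries it was in 16.5%, so it was not particular to the members. The Rpn4 sequence GGTGGCAAA, known from proteasome promoters, stood in 5 members (7.35%), in 1.45% of the 759 genes and in 1.08% of all windows. These members were PDI1 with YCL042W, NOP14 with RPN5, and RPN2, which are 3 regions. PAC was found in NOP14 with RPN5, DBP7 and ATG5 (5.88%), in 2.90% of the 759 genes and in 2.97% of all windows. Rap1 was found in ATG27 and RPS1A (2.94%), in 1.19% of the 759 genes and in 1.02% of all windows. Cbf1 (CACGTG) was found in CHL4, HRI1 and RRD2 (4.41%), in 4.35% of the 759 genes and in 2.16% of all windows. Mbp1 (ACGCGT) was found in CMR1 (1.47%), in 3.69% of the 759 genes and in 2.54% of all windows. The Gcn4 sequence TGACTC was in 0 members, in 3.43% of the 759 genes and in 4.41% of all windows.

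Runs of 7 or more A, or of 7 or more T, stood in 33 members (48.5%), in 40.2% of the 759 genes and in 33.2% of all windows. Runs of 10 or more stood in 15 members (22.1%), in 12.5% of the 759 genes and in 10.6% of all windows. The 15 members, among them MRPL15, ATG27, CCT7 and NUD1, lay in separate regions. Matches are letters of the sequence and say nothing of what was bound in these nuclei.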

How the data were processed

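NOMe-Seq of fixed S288C nuclei was analysed for 2 libraries, 1 per enzyme, grouped by the treatment given in the labels. The study lists its CCMT library under another deposited sample, so the CCMT library used here may not be the one it reports. Reads had been aligned by the authors (BMap, build sacCer3, followed by pipelines of their own). Program versions, filters on reads and the treatment of duplicates are not given in the sources used here. The deposited values are, for each cytosine with at least 5 reads, its read count without normalization and the methylated fraction, from 0 to 1. Methylated reads were recovered as whole numbers from both. Listed cytosines were matched to the R64 genome, in which all stood in CC (CCMT) or GC (GCMT). Summed over nuclear cytosines, coverage was 28485123 (CCMT) and 10967078 (GCMT).

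The members and the gene lists were chosen with earlier results of these data known. Levels are means over cytosines from −250 to −100 bp of the start codon of genes on 16 chromosomes, as percent. Open stretches are runs of 20% or more of the 51-bp mean (at least 2 cytosines, otherwise interpolated), searched from −1000 to 500 bp. The first minimum is the first point of the 41-bp profile downstream of the maximum that is lowest within 73 bp on either side and followed within 150 bp by a rise of 0.5 points; the 73 bp were set after the profiles had been seen, because a shorter distance stopped at a dip inside the peak. Genes are named as the 12 with the highest smaller level, 5 on each side of the threshold, 5 pairs, the 5 widest and 5 narrowest stretches, the 5 largest and 5 smallest enzyme differences, and by class; further members were named after their values had been seen. No p-value was computed, as each enzyme has a single library. Functions were tested on simulated data. The sequence of 1 promoter window is not reported here. Alternatives were a coverage minimum of 10, no GCC cytosines, thinned CCMT reads, pooled reads, at least 10 cytosines, other thresholds, window, smoothing and open levels, windows free of other genes, and shared promoters counted once. Computation used scipy 1.17.1, numpy 2.4.6 and pandas 2.3.3 under Python 3.11.15, with plots by matplotlib 3.10.9.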

Additional observations from a re-analysis of the deposited data

How the results depend on the processing

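No paired analysis was possible because there was 1 library per enzyme. Of 176 values recomputed under alternatives, 130 stayed within a set limit and 46 moved beyond it. For counts of genes and pairs the limit was a fixed ratio, and for the position of the first minimum it was 20 bp. For the other values it was the interval over genes or reads. None of these limits is a replicate error. The number of genes that passed, 68, was 300 at a threshold of 30%, 7 at 40%, 35 with at least 10 cytosines and 32 with a window from −200 to −50 bp, of which 15 were shared with the 68. A coverage minimum of 10 kept 47 of the 68, leaving out GCC cytosines 50, thinning CCMT reads to the GCMT depth 47 and pooling reads 61. Divergent pairs of members numbered 9, and 30 at 30%, 0 at 40%, 0 with the other window, 5 with 10 cytosines, 5 with the coverage minimum and 1 with shared promoters counted once, which removes them by construction. The divergent share was 50% with the other window.

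Median levels at 30% and 40% were 33.4 and 43.2% with CCMT, and 36.0 and 43.0% with GCMT, and the other window gave 38.2% with GCMT. The median width was 159 bp at each promoter's own midpoint and 301 bp at 40%. The downstream edge was at −89.5 bp for an open level of 25%, −99 bp at the midpoint, −55 bp at 40% and −47 bp with the other window. The CCMT body level was 9.76% at 40%. The GCMT level of genes chosen with CCMT was 33.98% from pooled reads, 35.5% at 40% and 30.2% with the other window. The CCMT level of genes chosen with GCMT was 26.8% at 30%, 30.1% at 40%, 26.7% with the other window and 29.9% without GCC cytosines.

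Of 56 values for the first minimum, 16 moved. With CCMT its position was 2 bp after thinning, 11 bp at 30%, −13 bp at 40%, −1 bp with the other window, −14 bp without windows over a neighbouring gene and −14 bp when searched from the midpoint, an alternative chosen after seeing the data. With GCMT it was 55 bp with the coverage minimum, 40 bp with shared promoters counted once and 29.5 bp when aligned on the edge. The CCMT level of the minimum was 10.5% at 40% and 10.9% with the other window. The GCMT level was 8.90% in the thinned comparison, 7.9996% with 10 cytosines, 8.78% with 21-bp smoothing, 9.14% without GCC cytosines and 8.87% without windows over a neighbouring gene. The cause of these shifts was not tested. The GCMT depth, a median of 13 reads per cytosine, limits its single-promoter values.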

Other observations

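The core CCCTAA, which the telomere repeat factor Tbf1 is known to bind, was searched after the windows had been seen. It stood in 10 members (14.7%), in 7.38% of the 759 other genes at 25% or more in both libraries and in 4.23% of all windows. The members were PEX22, LSO2, PSD2, RPA34, DBP7, MRPL15, PSP2, SSO2, ADD37 and MAM3, which are 8 of 60 separate regions, since SSO2 shares its match with ADD37 and the windows of LSO2 and PSD2 overlap with a match in each. None of these 10 windows held the Reb1 sequence. In 9 matches, 18 CCMT cytosines had a mean of 42.8%, beside 40.1% in the 20 bp on each side. With GCMT only 5 cytosines lay inside, with 62.6%, beside 38.9% in the 20 bp on each side. The windows were chosen by their levels, and CCCTAA itself holds CC targets of CCMT. The motif was picked because it was frequent here, so its share is a description and not support.

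In the 4850 other genes, cytosines inside 321 Reb1 sequences had 31.6% with CCMT, beside 29.8% in the next 20 bp and 25.1% from 21 to 70 bp away. With GCMT the order was another, with 26.3% over 75 cytosines inside, 34.1% in the next 20 bp and 26.3% further away. Inside 478 Abf1 sequences the CCMT level was 15.7% and the GCMT level 19.8%, beside 23.2% and 27.6% in the next 20 bp. The members had too few cytosines inside Abf1 sequences, 5 with CCMT and 2 with GCMT, to set beside these.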
